A study of Mus musculus with 4 samples.

Results

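The 39 genes described here are the nuclear-encoded Nduf genes, most of which code for subunits of respiratory complex I. All 39 are called complex I genes here, also Ndufa4, which is now placed in another complex, and its paralog Ndufa4l2. They were taken from a table of 56748 mouse genes as the protein-coding genes outside the mitochondrial chromosome whose symbol is Nduf, then a, b, c, s or v, then a digit. The rule used names only and no measured value. By their place in the enzyme, 7 were core subunits, 9 were accessory subunits of the matrix arm, 20 were accessory subunits of the membrane arm and 3 were other genes (Ndufa4, Ndufa4l2 and Ndufb11b). The subunit gene Ndufab1, the mitochondrial acyl carrier protein, lies outside the rule.

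Bulk RNA sequencing compared lungs with metastases of 4T1-FLuc, a luciferase-expressing mouse triple-negative breast cancer (TNBC) line, between 2 saline samples and 2 samples from mice given an antibody-drug conjugate (ADC) together with the gene therapy cmLumiOpto. All mice were female BALB/cJ, 7 weeks old when the tumor cells were injected into the tail vein. The ADC joins an anti-CD276 antibody to the microtubule inhibitor DM1 (mertansine). In cmLumiOpto, a cfos promoter drives a luciferase and the light-gated channel CoChR, and the luminescence opens the channel in the inner mitochondrial membrane of cancer cells. The sample titles name the groups Saline and cmLumi-ADC16mg. Other labels name the control PBS and the treatment cmLumi-Olap with CD276-DM1 at 16 mg/kg, for 3 weeks. The study's methods give saline and a lower dose of ADC and do not mention Olap, so the sources disagree on what the groups received. The labels also describe harvested tumor cells, whereas the methods describe dissociated lung tissue. No group with the ADC alone or cmLumiOpto alone was analysed here, so their parts cannot be told apart. More samples per group are described in the methods than the 2 analysed here. The methods call the samples biological, the labels do not say which mouse each came from, and p-values measure the spread between these samples.

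Complex I, NADH:ubiquinone oxidoreductase, is the entry point of electrons from NADH into the respiratory chain, and it pumps protons across the inner mitochondrial membrane. Its core subunits are the conserved parts that carry the flavin and iron-sulfur clusters or form the proton channels. The accessory subunits surround this core and serve in assembly and stability. The proton-pumping core subunits are coded by mitochondrial DNA, while every other subunit is made from nuclear genes and imported. Complex I is thus built from both genomes, and light-driven depolarization by CoChR acts on the same membrane.

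The libraries held 15263375 to 19675436 counts each, and 15320 genes passed the expression filter of edgeR. Of the 39 complex I genes, 38 passed. Ndufb11b had no count in any sample, and 3 counts, a floor for counting error only, amounted to 0.152 to 0.197 CPM. Here CPM are counts relative to the size of the library after edgeR's TMM correction. Every other complex I gene was measured in all 4 samples. The complex I genes together took 0.219% and 0.214% of all counts under saline, and 0.327% and 0.265% after ADC/cmLumiOpto. Both treated samples lay above both saline samples.

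The median log2 fold change of the 38 genes after ADC/cmLumiOpto was 0.54, against 0.028 for all tested genes, and 35 were positive and 3 negative. In bulk samples, a different share of cells of a type and a different amount of RNA per cell cannot be told apart. At an unadjusted p under 0.05 in edgeR's quasi-likelihood test, 21 of 38 complex I genes were higher and 0 lower, against 11.0% of all tested genes higher and 12.2% lower. After Benjamini-Hochberg adjustment, 0 of 38 complex I genes and 0 of 15320 genes had an adjusted p under 0.05 in that test, with 0.116 as the smallest value. At an adjusted p under 0.05, DESeq2 gave 8 complex I genes higher, against 3.78% of all tested genes, and the edgeR exact test gave 5, against 3.96%. The quasi-likelihood test without a filter on low counts gave 12, against 4.79%, and the calls thus depend on the tool and the filter. Both treated samples lay above both saline samples for 29 of 38 complex I genes, where 28.1% of all tested genes did so, and both lay below for 1, Ndufa10, against 28.8%. With 2 samples against 2, an exact two-sided permutation test cannot give a p under 0.333, so no such test was used.

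The first ADC/cmLumiOpto sample stood farther from saline than the second. Its median difference from the saline samples was 0.75 and 0.73 on the log2 CPM scale, and 35 of 38 complex I genes were above each of them. For the second ADC/cmLumiOpto sample the median differences were 0.35 and 0.27, with 30 and 34 genes above. Between the ADC/cmLumiOpto samples, 36 of 38 genes were lower in the second, with a median difference of -0.39. The saline samples were close to each other, with a median difference of 0.0075 and 19 genes on each side. Without the first ADC/cmLumiOpto sample the median log2 fold change was 0.32 and 7 genes were higher at an unadjusted p under 0.05 in edgeR's quasi-likelihood test, against 8.85% of all tested genes. The count was 9 without the first saline sample (11.3% of all), 8 without the second (5.25%) and 27 without the second ADC/cmLumiOpto sample (10.5%). Without the first ADC/cmLumiOpto sample the log2 fold change was 0.70 for Ndufa12, 0.46 for Ndufa5, 0.31 for Ndufb1 and -0.070 for Ndufa4l2. It was 0.26 for Ndufa4, 0.14 for Ndufv2 and 0.091 for Ndufs8.

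**Figure D1:**
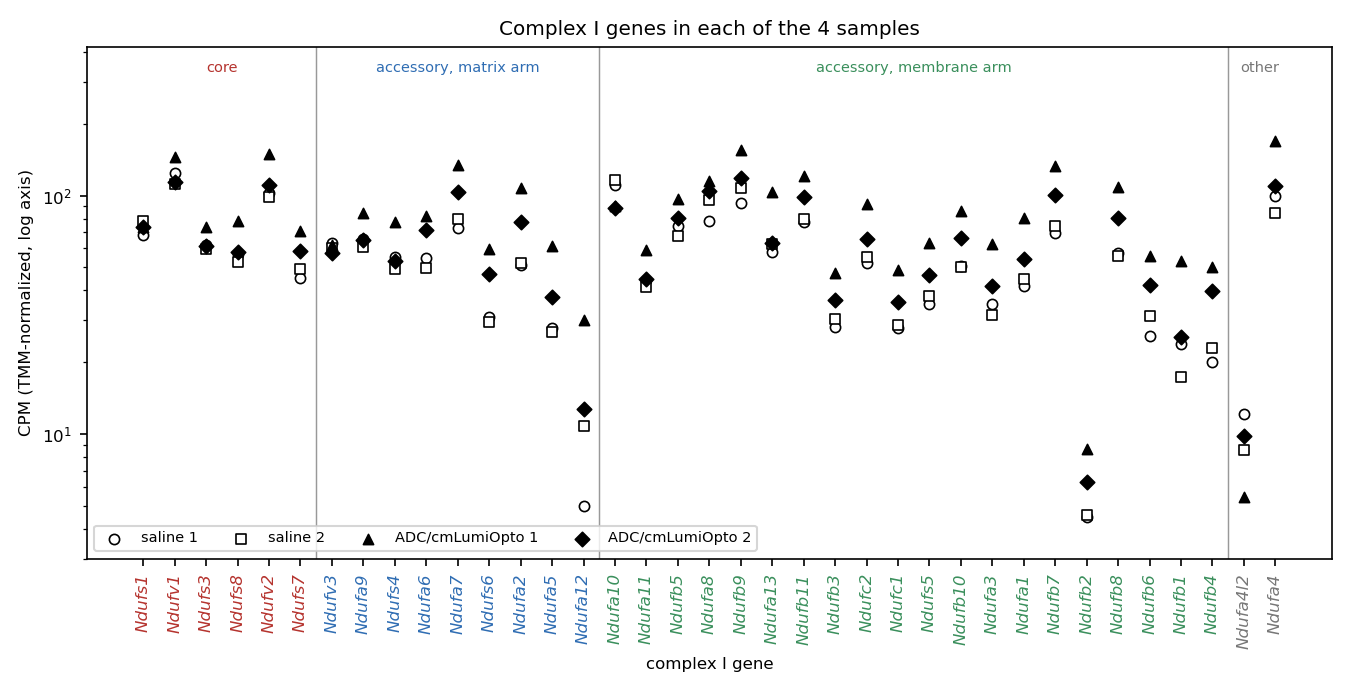
Level of 37 measured complex I genes in CPM on a log axis, with open symbols for the saline samples and filled symbols for the ADC/cmLumiOpto samples, ordered within each role by log2 fold change. The first ADC/cmLumiOpto sample (triangle) is the highest sample for most accessory subunit genes, while the core genes Ndufs1 and Ndufs3 show overlapping groups.

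The core subunits had the smallest median log2 fold change of the 3 subunit lists, 0.15, and 1 of 7, Ndufs7, was higher at an unadjusted p under 0.05, a share near the 11.0% of all tested genes. The genes of the NADH-oxidizing module are Ndufv1, which binds the flavin, Ndufv2 and Ndufs1, which hold iron-sulfur clusters. Ndufs1 was at 68.6 and 78.3 CPM in the saline samples and at 73.6 and 73.8 CPM in the ADC/cmLumiOpto samples. The treated values lay between the saline values, with a log2 fold change of 0.0056 (standard error, SE, 0.16). Ndufv1 was at 124.8 and 111.3 CPM in the saline samples and at 145.5 and 113.9 CPM in the treated samples, with a log2 fold change of 0.14 (SE 0.19). Ndufv2 was at 102.2 and 98.5 CPM and at 149.3 and 110.2 CPM, respectively, with a log2 fold change of 0.37 (SE 0.20). The groups overlapped for Ndufv1 and did not overlap for Ndufv2.

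Ndufs3, Ndufs7 and Ndufs8 belong to the module that passes electrons to ubiquinone. Ndufs3 was at 62.1 and 59.5 CPM against 73.7 and 61.5 CPM after treatment, with a log2 fold change of 0.15 (SE 0.17) and overlapping groups. Ndufs7 and Ndufs8, which carry the last iron-sulfur clusters before ubiquinone, did not overlap between groups. Ndufs7 was at 45.1 and 49.0 CPM in saline and at 70.9 and 58.7 CPM after treatment. Its log2 fold change was 0.46 (SE 0.17, adjusted p = 0.185, edgeR quasi-likelihood). Ndufs8 was at 56.9 and 52.6 CPM in saline and at 78.0 and 57.9 CPM after treatment, with a log2 fold change of 0.31 (SE 0.20).

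Among the 9 accessory subunits of the matrix arm, the median log2 fold change was 0.63, with 6 higher at an unadjusted p under 0.05 (11.0% of all tested genes) and 0 lower (12.2%). Ndufs6 (ENSMUSG00000021606, chromosome 13), which holds a zinc ion and is needed late in assembly of the arm, was at 30.9 and 29.6 CPM in the saline samples and at 59.4 and 47.1 CPM in the ADC/cmLumiOpto samples. Both treated samples were well above the saline samples, with a log2 fold change of 0.81 (SE 0.18, adjusted p = 0.116, edgeR quasi-likelihood). Ndufa2, a small subunit with a thioredoxin-like fold, was at 51.2 and 52.0 CPM in saline and at 107.9 and 77.6 CPM after treatment. Its log2 fold change was 0.85 (SE 0.20, adjusted p = 0.123, edgeR quasi-likelihood). Ndufa5 was at 27.8 and 26.8 CPM in saline and at 61.5 and 37.4 CPM after treatment, with a log2 fold change of 0.86 (SE 0.26). For these genes the groups did not overlap, and the spread between the treated samples was larger than that between the saline samples.

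Ndufa12 (ENSMUSG00000020022, chromosome 10), which takes the place of an assembly factor in the finished arm, had the largest log2 fold change of the complex I genes, 1.44 (SE 0.52, adjusted p = 0.174, edgeR quasi-likelihood). It was at 5.0 and 10.8 CPM in the saline samples and at 30.2 and 12.7 CPM in the ADC/cmLumiOpto samples. The second treated sample was close to the second saline sample. Its counts were 80, 160, 532 and 261 in the order saline 1, saline 2, treated 1 and treated 2, while the processed pseudogene Ndufa12-ps on chromosome 5 had 673, 594, 995 and 1009. The copy held 89.4% and 78.8% of the reads of the pair under saline, and 65.2% and 79.4% after treatment. With the copy added to its parent, the log2 fold change of Ndufa12 was 0.60. How reads were shared between such near-identical sequences is not given in the sources used here, and the value of Ndufa12 is uncertain for that reason.

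At the other end of the matrix arm, Ndufv3 was at 63.1 and 60.0 CPM in the saline samples and at 61.8 and 57.4 CPM in the ADC/cmLumiOpto samples. The groups overlapped, with a log2 fold change of -0.047 (SE 0.16). Ndufa9 and Ndufs4, which code for a subunit near the ubiquinone site and a phosphorylatable subunit of the arm, also overlapped between groups, with log2 fold changes of 0.24 and 0.32. Without the first ADC/cmLumiOpto sample these values were 0.052 and 0.028. The remaining genes were Ndufa6 at 0.56 and Ndufa7 at 0.63, and both were higher at an unadjusted p under 0.05.

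**Figure D2:**
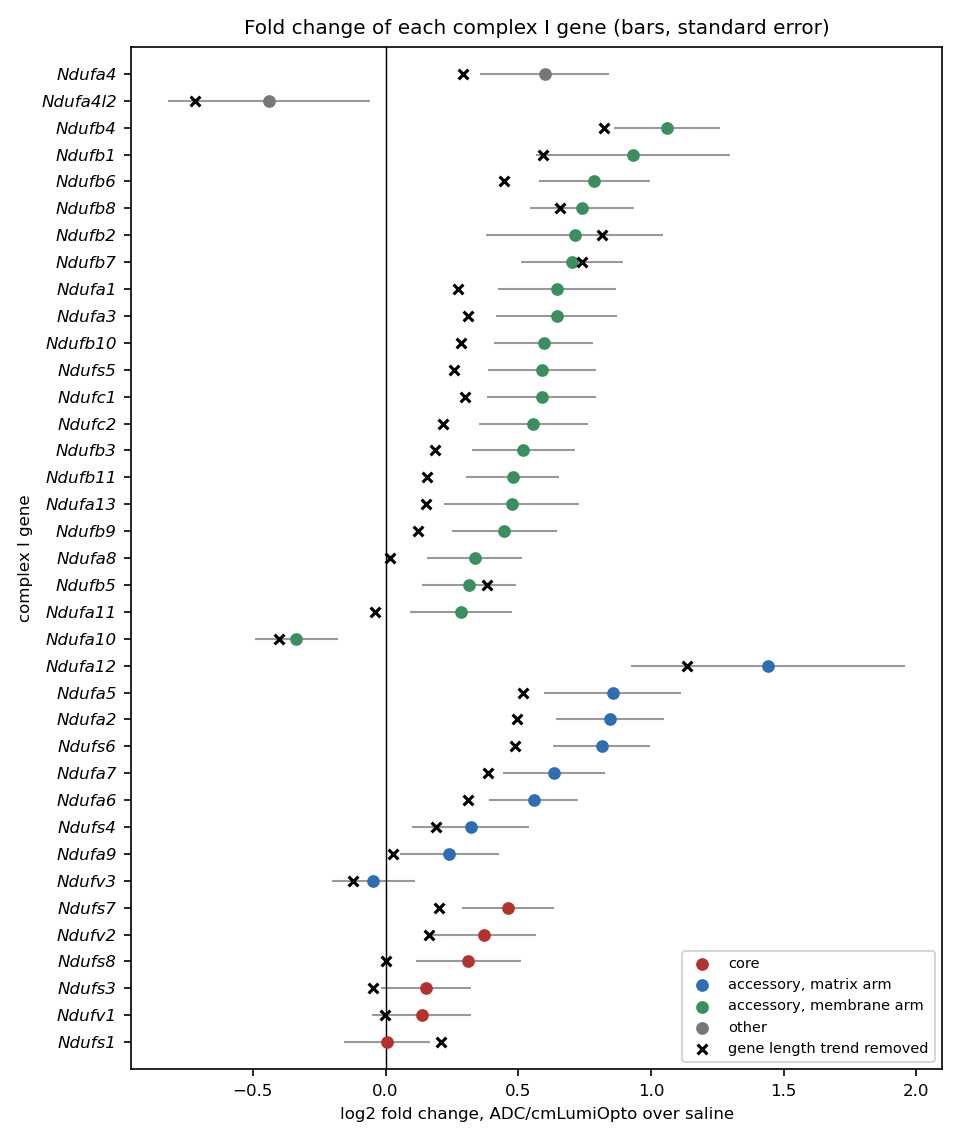
Log2 fold change of the same 37 complex I genes, ADC/cmLumiOpto over saline, with the standard error as a bar and color for the role. Crosses give the value after the trend of fold change on gene length was removed, and these lie left of the points for most genes. Ndufa12 (1.44) and Ndufb4 (1.06) have the largest values, and Ndufa4l2 (-0.44) and Ndufa10 (-0.34) the lowest.

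The 20 accessory subunits of the membrane arm had a median log2 fold change of 0.59, with 13 higher at an unadjusted p under 0.05 (11.0% of all tested genes) and 0 lower (12.2%). For 19 of 20 both treated samples lay above both saline samples, as they did for 28.1% of all tested genes. Ndufb4 (ENSMUSG00000022820, chromosome 16), a subunit at the far end of the arm, was at 20.0 and 23.0 CPM in the saline samples and at 49.9 and 39.6 CPM in the ADC/cmLumiOpto samples. Its log2 fold change was 1.06 (SE 0.20, adjusted p = 0.116, edgeR quasi-likelihood). Ndufb1, a small subunit of the same arm, was at 23.8 and 17.3 CPM in saline and at 53.2 and 25.4 CPM after treatment. The second treated sample was close to the first saline sample, with a log2 fold change of 0.93 (SE 0.37). Log2 fold changes of the other genes higher at an unadjusted p under 0.05 ran from 0.48 for Ndufb11 to 0.79 for Ndufb6. Ndufa1 and Ndufb11, the complex I genes on the X chromosome, were at 0.65 and 0.48.

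Ndufa10 (ENSMUSG00000026260, chromosome 1) stood alone in the membrane arm, with each treated sample below each saline sample. The gene codes for a nucleoside kinase-like subunit that is a target of the kinase PINK1. It was at 110.3 and 116 CPM in the saline samples and at 90.7 and 88.6 CPM in the ADC/cmLumiOpto samples. The log2 fold change was -0.34 (SE 0.16, adjusted p = 0.248, edgeR quasi-likelihood). Leaving out each sample in turn gave between -0.37 and -0.28.

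Mean log2 CPM summarizes the roles in each sample. The 7 core genes were at 6.38 and 6.36 under saline and at 6.72 and 6.43 in the ADC/cmLumiOpto samples, and the 29 accessory genes were at 5.36 and 5.41 and at 6.17 and 5.72. The accessory mean minus the core mean was -1.02 and -0.95 in saline and -0.55 and -0.71 after treatment. The groups did not overlap in this difference, which was not tested. Core genes were also longer, with a median gene length of 2178 bases against 1217 for the accessory genes, and fold changes went with length across all genes. The median log2 fold changes were 0.15 for core and 0.59 for accessory genes. With the trend of fold change on gene length removed, they were 0.0028 and 0.30. The part of length in the difference was not tested.

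Ndufa4 was first assigned to complex I and is now placed in cytochrome c oxidase, and Ndufa4l2 is its paralog, known as a hypoxia-inducible gene. Ndufa4 was at 99.3 and 84.2 CPM in the saline samples and at 168.8 and 109.2 CPM in the ADC/cmLumiOpto samples, with a log2 fold change of 0.60 (SE 0.24). Ndufa4l2 was at 12.1 and 8.56 CPM in saline and at 5.44 and 9.80 CPM after treatment. The groups overlapped, with a log2 fold change of -0.44 (SE 0.38). The ratio of Ndufa4 counts to Ndufa4l2 counts was 8.19 and 9.83 under saline, and 31.03 and 11.1 after treatment, so the first treated sample stood apart and the second lay near saline.

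Of the gene copies examined, which were chosen by symbol, those other than Ndufa12-ps took few reads. Copies listed under unrelated symbols were not searched. Ndufs5-ps held between 5.72% and 7.22% of the reads of its pair and Ndufb4c between 3.40% and 4.34%. Ndufs6b and Ndufa11b had at most 15 counts in a sample. With the examined copies added to their parents, the median log2 fold change of the complex I genes was 0.54 and 21 were higher at an unadjusted p under 0.05, as before.

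Per kilobase of gene model, the saline level was highest for Ndufa1, at 103 CPM per kilobase, a subunit of the junction between the arms, followed by Ndufa8 at 101 and Ndufb9 at 97.3. After treatment Ndufa2, at 162, and Ndufa1, at 161, were at the top. The lowest saline levels on this scale were those of Ndufb2 at 0.807, Ndufa12 at 5.03 and Ndufs1 at 9.08 CPM per kilobase. The length listed for Ndufb2 is 5628 bases, and gene models cover all annotated exons, so long models lower this level.

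The promoters of complex I genes are known for binding sites of the nuclear respiratory factors and of YY1. RefSeq windows of GRCm38.p6, from 250 bases before to 50 bases after the transcription start, were found for 33 of 39 complex I genes, with more than 1 window for some genes. The letters GCGCNTGCG of an NRF1 site, on either strand, occurred in 9 of these 33 genes (Ndufa5, Ndufa6, Ndufa8, Ndufa11, Ndufa12, Ndufb4, Ndufb10, Ndufs5 and Ndufs6) and in 7.12% of 27025 genes. With 1 more C required at the end, the form searched first, they occurred in 7 of 33 and in 5.19% of genes, without Ndufa12 and Ndufb10. The letters AAGATGGCG of a YY1 site occurred in 5 (Ndufa9, Ndufc1, Ndufs4, Ndufs6 and Ndufs7) against 1.64%, and the ETS letters CCGGAAG in 4 (Ndufb6, Ndufb7, Ndufs3 and Ndufs8) against 9.93%. A match describes these letters only. The windows of Ndufb4 and Ndufs6, the nuclear complex I genes with the smallest adjusted p, are shown 5′ to 3′ on the strand of the gene with the matches in capitals. Any window of these symbols on another chromosome than the one given entered the counts only. Ndufb4 (chr16:37654319-37654618, minus strand) holds 3 NRF1 matches on the opposite strand, which begin 190, 78 and 21 bases before the start. Ndufs6 (chr13:73328433-73328732, minus strand) holds 1 NRF1 match 16 bases before the start and 1 YY1 match that spans its start codon.
Ndufb4: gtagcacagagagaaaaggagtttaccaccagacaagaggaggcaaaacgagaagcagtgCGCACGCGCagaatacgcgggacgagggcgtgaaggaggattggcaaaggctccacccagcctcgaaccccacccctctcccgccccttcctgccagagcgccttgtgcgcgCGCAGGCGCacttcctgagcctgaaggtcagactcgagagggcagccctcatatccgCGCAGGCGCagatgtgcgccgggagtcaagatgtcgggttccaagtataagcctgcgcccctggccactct
Ndufs6: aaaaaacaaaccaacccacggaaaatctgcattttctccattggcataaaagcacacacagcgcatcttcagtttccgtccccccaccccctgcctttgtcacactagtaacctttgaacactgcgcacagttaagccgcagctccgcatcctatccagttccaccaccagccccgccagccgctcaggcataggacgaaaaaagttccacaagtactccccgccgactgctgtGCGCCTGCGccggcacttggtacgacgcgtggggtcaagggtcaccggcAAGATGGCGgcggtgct

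The transcripts of complex I from mitochondrial DNA were compared with the nuclear ones. All 7 mitochondrially encoded subunit genes had both treated samples above both saline samples in CPM, as did 28.1% of all tested genes. Their median log2 fold change was 0.72. At an unadjusted p under 0.05, 6 of 7 were higher, against 11.0% of all tested genes. mt-Nd4, a proton-pumping subunit, was at 745 and 803 CPM in the saline samples and at 1819 and 1302 CPM in the ADC/cmLumiOpto samples. Its log2 fold change was 1.01 (SE 0.21, adjusted p = 0.116, edgeR quasi-likelihood). mt-Nd3 was at 18.4 and 17.7 CPM and at 58.5 and 29.5 CPM, respectively, with a log2 fold change of 1.29 (SE 0.33). mt-Nd6, the subunit gene on the opposite strand of mitochondrial DNA, was at 259 and 294 CPM in saline and at 498 and 412 CPM after treatment, with a log2 fold change of 0.72 (SE 0.18). Together these genes took 0.423% and 0.471% of counts in saline and 0.790% and 0.661% after treatment. All genes of mitochondrial DNA took 1.13% and 1.17% in saline and 2.09% and 1.84% after treatment, so the whole mitochondrial share was higher in both treated samples, and its part in these values was not tested. The first treated sample was again the highest, as for the nuclear genes.

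Assembly factors are proteins that build complex I and are absent from the finished enzyme. All but 1 of the 20 assembly factor genes listed were found, and the median log2 fold change of these 19 was 0.39. At an unadjusted p under 0.05, 4 were higher and 0 lower, against 11.0% and 12.2% of all tested genes. Tmem126b, of the complex that assembles the membrane arm, was at 11.0 and 10.3 CPM in the saline samples and at 25.7 and 15.2 CPM in the ADC/cmLumiOpto samples, with a log2 fold change of 0.94 (SE 0.31). Dmac1, at 0.85 (SE 0.28), and Ndufaf6, at 1.02 (SE 0.35), followed. Ndufab1 was at 25.6 and 25.8 CPM in saline and at 49.1 and 32.1 CPM after treatment, with a log2 fold change of 0.66 (SE 0.24, adjusted p = 0.176, edgeR quasi-likelihood).

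Nuclear genes of complexes II to V, the rest of the oxidative phosphorylation chain, had a median log2 fold change of 0.41 over 38 genes. At an unadjusted p under 0.05, 11 were higher and 0 lower, against 11.0% and 12.2% of all tested genes. The smallest p-values were those of Uqcrh, a hinge subunit of complex III, at 1.05 (SE 0.22), Atp5e, the epsilon subunit of ATP synthase, at 1.03 (SE 0.23), and Uqcr11 at 1.01 (SE 0.24). The list was thus on the same side as complex I. The difference between the lists was not tested.

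Markers of mitochondrial content were at a median log2 fold change of 0.0075 over 15 genes, with 8 positive and 7 negative. At an unadjusted p under 0.05, 0 were higher and 0 lower, against 11.0% and 12.2% of all tested genes. Cs, the citrate synthase gene, was at 202 and 205 CPM in the saline samples and at 153 and 168 CPM in the ADC/cmLumiOpto samples, with a log2 fold change of -0.34 (SE 0.16). Vdac1 and Vdac2, the channels of the outer membrane, were at -0.31 and -0.29. For these 3 genes the treated samples were the lower ones, without overlap. Over the whole list, 5 genes lay lower and 3 higher without overlap, against 28.8% and 28.1% of all tested genes. Phb was among the higher ones, at 0.36. Regulators of mitochondrial biogenesis had a median of -0.21 over 10 tested genes. At an unadjusted p under 0.05, 1 was higher (Esrra, an orphan nuclear receptor, at 0.43) and 1 lower (Gabpa, the ETS factor known as NRF2, at -0.45). These shares were near the 11.0% and 12.2% of all tested genes. Pprc1, a coactivator of the PGC-1 family, was at -0.28. Ppargc1a, the coactivator PGC-1 alpha, had 4, 3, 6 and 8 counts and was not tested.

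**Figure D3:**
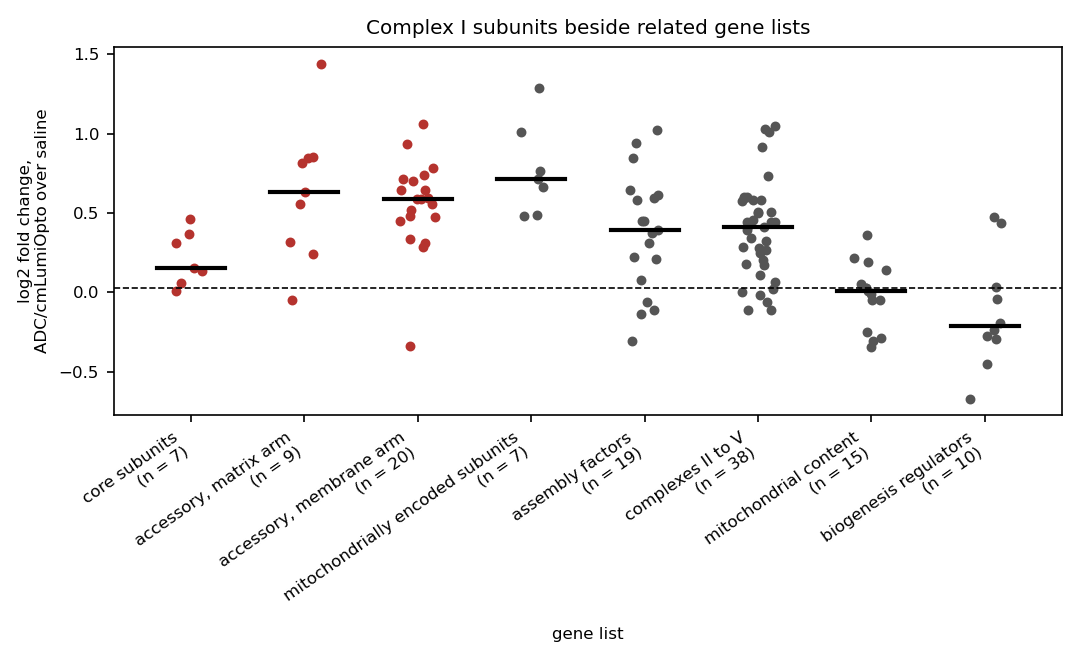
Log2 fold change of each tested gene (points) and median (bar) for complex I subunits by role, in red, and for related lists, in grey. The dashed line is the median of all tested genes, 0.028. Accessory subunits, mitochondrially encoded subunits and complexes II to V lie mostly above it, and the medians of mitochondrial content (0.0075) and of the biogenesis regulators (-0.21) lie below it.

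Complex I genes are short, and fold change moved with gene length in these samples. The median gene length was 1438 bases for the 38 complex I genes and 4113 for all tested genes. Across genes, which are not independent replicates and share the same 4 libraries, the Spearman correlation between gene length and log2 fold change was -0.36 over the complex I genes and -0.34 over all 15320 genes. Genes of less than 1 kb had a median of 0.39 over all genes and 0.59 over 9 complex I genes, and those of 1 to 2 kb had 0.32 over all genes and 0.59 over 16 complex I genes. From 2 to 4 kb the medians were 0.13 and 0.15, the latter over 9 complex I genes. Above 4 kb they were -0.14 over all genes and 0.51 over 4 complex I genes (Ndufb2, Ndufb5, Ndufb7 and Ndufs1). These 4 are long as gene models, but the median length of their annotated transcripts was 2413, 625, 623 and 651 bases, respectively. With median transcript length in place of gene length, the correlation was -0.44 over the complex I genes and -0.30 over 15173 genes.

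With the length trend of each sample removed through offsets, the median log2 fold change of the complex I genes was 0.24, against 0.020 for all tested genes. In that fit 8 of 38 were higher at an unadjusted p under 0.05, against 9.98% of all tested genes, and 1, Ndufa10, was lower, against 9.87%. The medians were 0.0028 for core subunits, 0.39 for accessory subunits of the matrix arm, 0.28 for those of the membrane arm, 0.37 for mitochondrially encoded subunits and 0.12 for complexes II to V. Those of the biogenesis regulators and of mitochondrial content, -0.21 and 0.0075 without the correction, were -0.025 and -0.15. All 8 higher genes were accessory subunits. Values of Ndufb4 and Ndufs6 were 0.82 and 0.49. Whether length itself, RNA quality or another property that goes with length bears on the fold changes was not tested.

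**Figure D4:**
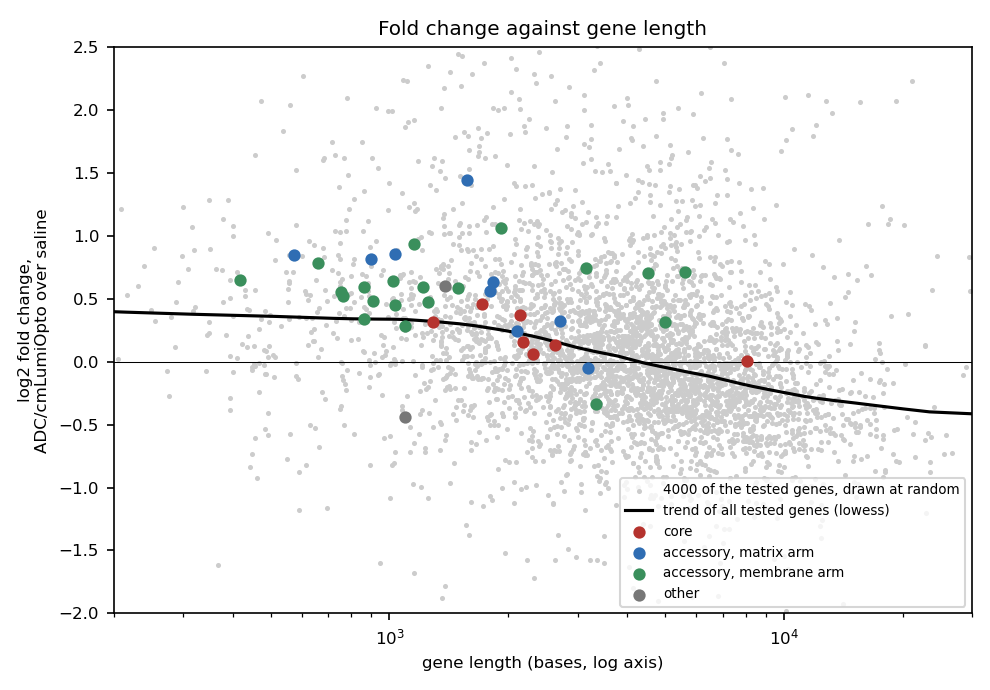
Log2 fold change against gene length on a log axis, for 4000 tested genes drawn at random (grey) and the complex I genes (colors for role), with the lowess trend of all tested genes as a line. A few grey points lie beyond the axes. The trend declines with length and most complex I genes, accessory ones in particular, lie above it.

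Cell type markers also differed between the samples. All 4 markers of alveolar type 2 cells, which line the air sacs and make surfactant, were higher at an unadjusted p under 0.05. Over all tested genes, 11.0% were higher and 12.2% lower at that threshold. The summed level of these 4 markers was 1400.0 and 271 CPM in the saline samples and 5217 and 4383 CPM in the ADC/cmLumiOpto samples. The 3 markers of club cells, secretory cells of the airways, summed to 1145 and 79.1 CPM in saline and to 6188 and 2944 CPM after treatment, with 3 of 3 higher. Leukocyte markers summed to 3092 and 1823 CPM and to 5705 and 9874 CPM, with 5 of 10 higher. Most of this sum came from the myeloid genes Lyz2, S100a8 and S100a9. S100a8 was at 454 and 170 CPM in saline and at 422 and 3089 CPM after treatment. S100a9 was at 505 and 210 CPM and at 562 and 3815 CPM, respectively, so both were far higher in the second treated sample only. Ptprc and Cd3d were also among the 5 higher, while the groups overlapped for Csf1r, Itgam and Cd3e. Fibroblast and mural markers summed to 3720 and 2538 CPM in saline and to 1121 and 1002 CPM after treatment, with 5 of 5 lower. The 3 proliferation markers were also lower, with sums of 859 and 859 CPM against 495 and 462 CPM. The part of these cells in the complex I values was not tested.

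The summed alveolar type 2 markers were at 1400.0 and 271 CPM in the saline samples, which are a single pair. The median difference of the complex I genes between these samples was 0.0075 on the log2 scale. Whether the mixture of cells bears on the complex I values was not tested. Epithelial keratin and Epcam markers, which 4T1 cells share with normal epithelium, summed to 2681 and 3139 CPM in saline and to 2634 and 2569.6 CPM after treatment. Of tissues rich in mitochondria, brown fat markers summed to at most 0.472 CPM, and skeletal muscle markers to at most 6.18 CPM. Cardiac markers summed to between 81.9 and 123 CPM, nearly all from Tnnt2, with Myh6 at no more than 2.83 CPM. The part of such tissues in the complex I values was not tested.

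**Figure D5:**
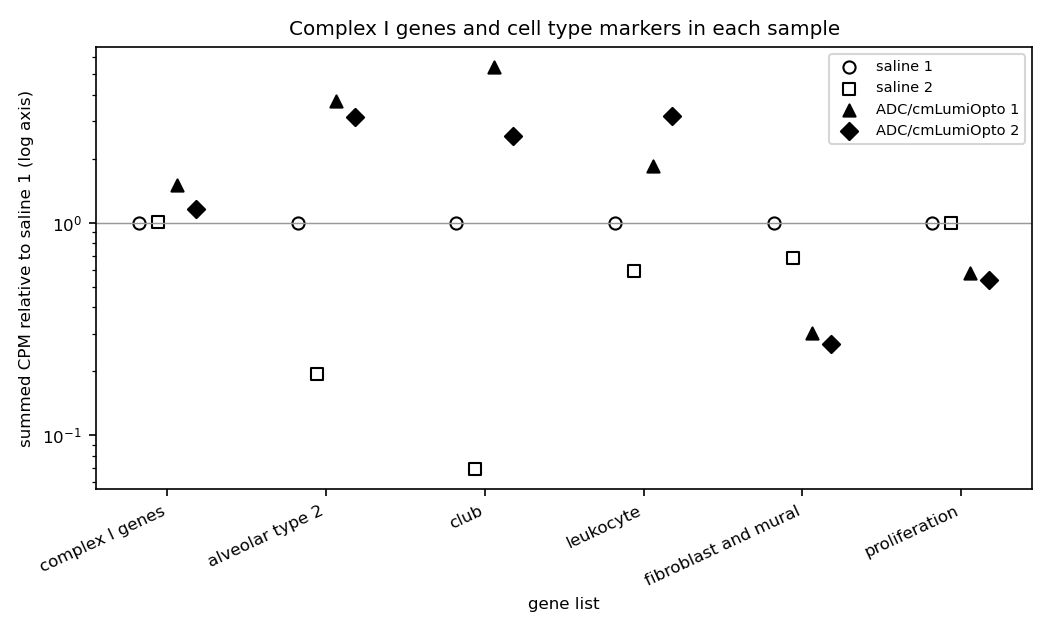
Summed CPM of the 38 measured complex I genes and of 5 marker lists in each sample, relative to the first saline sample, on a log axis. The complex I sum was 1.51 and 1.16 times the first saline sample in the treated samples and 1.00 in the second saline sample. The sums of alveolar type 2, club cell, leukocyte, and fibroblast and mural markers differed between the saline samples.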

How the data were processed

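Gene-level read counts, not normalized, were deposited by the authors for 4 libraries of poly-T selected RNA, aligned with HISAT2. The study's methods name GRCm38 and the submitters' processing notes name mm39, and the listed gene positions do not match GRCm38, so genes are given without positions from the table. The counting program and the strand setting are not given in the sources used here. The tests were run with edgeR 4.0.16 under R 4.3.3: filterByExpr (minimum count 10, minimum total 15), TMM, glmQLFit and glmQLFTest over all 15320 genes, with Benjamini-Hochberg adjusted p and a threshold of 0.05. A prior count of 0.125 was set for log2 fold changes and one of 2 for log2 CPM. The standard error is the size of the log2 fold change divided by the square root of F. The complex I genes and the gene lists were chosen with earlier results of these data known. Genes given with every sample's value are the core subunits, the 5 highest and 5 lowest fold changes, paralogs and up to 3 genes with the smallest p per list. Ndufs6 was added because its promoter is shown, and some genes are also named by counts of 5 or fewer. Trend removal used lowess with a span of 0.3. Alternatives were DESeq2 1.42.0, other scalings, filters and tests, a replicate block, and each sample left out in turn. The transcript length, GC and pseudogene alternatives were chosen after seeing the data. The NRF1 letters were shortened by 1 base after the matches of the longer form had been seen, and both counts are given. A gene that is not reported here still enters the counts and medians. The procedure was tested on simulated data.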

Additional observations from a re-analysis of the deposited data

How the results depend on the processing

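At an adjusted p under 0.05, DESeq2 called 8 complex I genes (1353 genes in all), the edgeR exact test 5 (1170), edgeR without a filter on low counts 12 (2259) and edgeR with the replicate block 1, Ndufb4 (607), against 0 and 0 in the reported fit. The sample titles number the samples and state no pairing. Deviations of same-numbered samples from their group means correlated at 0.0985 over 15320 genes and at -0.37 over the complex I genes. With 2 pairs, these values cannot show whether the samples were paired. Leaving out each sample in turn gave 0 complex I genes and between 0 and 206 genes in all at an adjusted p under 0.05, between 7 and 27 complex I genes higher at an unadjusted p under 0.05, a median log2 fold change between 0.32 and 0.73, and a median minus that of all tested genes between 0.31 and 0.75. In these fits the lone sample of a group was assumed to vary like the others. Removing the gene length trend gave 8 genes higher, 1 lower, a median of 0.24 and a difference from all genes of 0.22, and removing the transcript length trend gave 9, 1, 0.32 and 0.30, where 1537 of all 15320 genes were higher and 1560 lower. The other alternatives kept the median within the spread between replicates. Among all tested genes, 1690 were higher and 1863 lower at an unadjusted p under 0.05, and upper-quartile factors gave 2146 and 1398, with complex I at 22 and 0.

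Signs turned for 5 of the genes given here, none past the threshold. Leaving out each sample in turn gave log2 fold changes between -0.087 and 0.12 for Ndufs1, -0.043 and 0.30 for Ndufv1, and -0.093 and 0.0062 for Ndufv3, which upper-quartile factors also turned (0.039). Of these, Ndufs1 turned without the first saline sample, Ndufv1 without the first ADC/cmLumiOpto sample, and Ndufv3 without the second. With the gene length trend removed, Ndufa11 (-0.039), Ndufs3 (-0.048) and Ndufv1 (-0.0033) turned, and with the transcript length trend removed Ndufs1 (-0.19) and Ndufs3 (-0.027) did. The cause was not tested. Ndufb2, Ndufa12 and Ndufa4l2, the complex I genes with the fewest counts, also carry the largest counting error.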
